A study of Homo sapiens with 2 samples.

Results

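The SLC25 genes encode the mitochondrial carriers, the family that moves nucleotides, organic acids, amino acids, cofactors, phosphate and metals across the inner mitochondrial membrane. They were described here in LP-1 cells, an established line of human multiple myeloma, on 2 whole-transcript Affymetrix arrays. The HIF2A array holds RNA of cells stably carrying pRUF-IRES-GFP-HIF2A, which adds HIF-2α, a subunit of an oxygen-regulated transcription factor and the product of EPAS1. The vector control array holds RNA of cells carrying pRUF-IRES-GFP alone, so both lines carry the GFP vector. The labels name no separate clones or cultures, and no oxygen level. Members were the genes whose single symbol in the array annotation begins with SLC25A and a number, each with its brightest probe set by the mean of the 2 arrays. This gave 49 of 18377 genes, from 51 probe sets. Of these, 46 are protein-coding, 2 are pseudogenes (SLC25A51P1 and SLC25A51P4) and 1 is an antisense RNA (SLC25A5-AS1). SLC25A6 was not analysed here.

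A carrier typically folds as a bundle of membrane helices that opens in turn to the cytosol and to the matrix, exchanging one substrate for another. Through these exchanges the family supplies ADP and phosphate to ATP synthase, exports citrate for lipid synthesis, brings acylcarnitines in for fatty acid oxidation, and links cytosolic and matrix redox through aspartate and malate. Among HIF factors, HIF-1 is known in many cells for raising glucose use and lowering mitochondrial respiration. HIF-1 and HIF-2 bind DNA at a short core, ACGTG or GCGTG, in the regulatory sequence of their targets.

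The comparison asks how carrier transcripts differ when HIF-2α is added to these cells. EPAS1, the added gene, had a log2 signal of 9.05 in the HIF2A array and 3.70 in the vector control array, 40.8-fold higher, the direction the labels give. All 8 plasma cell markers examined lay on both arrays above the olfactory receptor limit, the 95th percentile of 359 genes that serve as a measure of background, at 3.58 in the HIF2A array and 3.59 in the vector control array. Of 18 markers of B, T and NK, myeloid, stromal, endothelial and erythroid cells with a probe set, 8 lay above it on both arrays. These 8 plasma cell markers split evenly, 4 above and 4 below their vector control signal. The largest falls were SLAMF7, 5.24-fold lower, at 4.24 in the HIF2A array and 6.63 in the vector control array, and TNFRSF17, 2.04-fold lower, at 7.68 and 8.71. The largest rises were MZB1, 1.36-fold, at 8.91 and 8.47 in the same order, and XBP1, 1.27-fold, at 10.47 and 10.13. Among the B cell markers PAX5 was at 3.89 and 3.96 in the same order, MS4A1 at 2.62 and 2.72, and CIITA at 6.11 and 5.57. PECAM1, listed for endothelial cells, was at 5.28 in the HIF2A array and 4.36 in the vector control array. The part of these shifts in the carriers' differences was not tested. Each group has 1 array, so no difference below has a replicate check, an error or a test, and that number limits the precision. In these bulk samples fewer cells of a type and less RNA per cell cannot be told apart.

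Most carriers differed by less than 1.5-fold between the arrays. Counted were members whose brighter array reached 4.01, the median signal of all probe sets, which 39 of the 49 did, as did 11469 genes in all. In this count 16 members were higher in the HIF2A array, 20 were lower and 3 were equal. Their median log2 difference, HIF2A minus vector control, was -0.03, beside 0.03 over all genes counted. The members' mean was 0.02, opposite in sign to their median. On the deposited signals, 3 members were at least 1.5-fold higher, where 5.67% of all genes were, and 3 were at least 1.5-fold lower, where 4.76% were. Together these, SLC25A41 included, are 15.4% of the members, beside 10.4% of all genes. Among the higher members, SLC25A41 was below the olfactory receptor limit on the vector control array, and with signals floored at that limit 2 members were that much higher. A 2-fold difference was reached by 0 members in either direction, where 0.706% of all genes were that much higher and 0.732% that much lower. The robust SD of the differences, the scaled median absolute deviation, was 0.31 over the members and 0.34 over all genes. Of the 39, 25 differed by less than the SD over all genes, a share that was not computed for all genes. By less than 0.1 differed 12, or 30.8%, beside 21.9% of all genes.

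**Figure D1:**
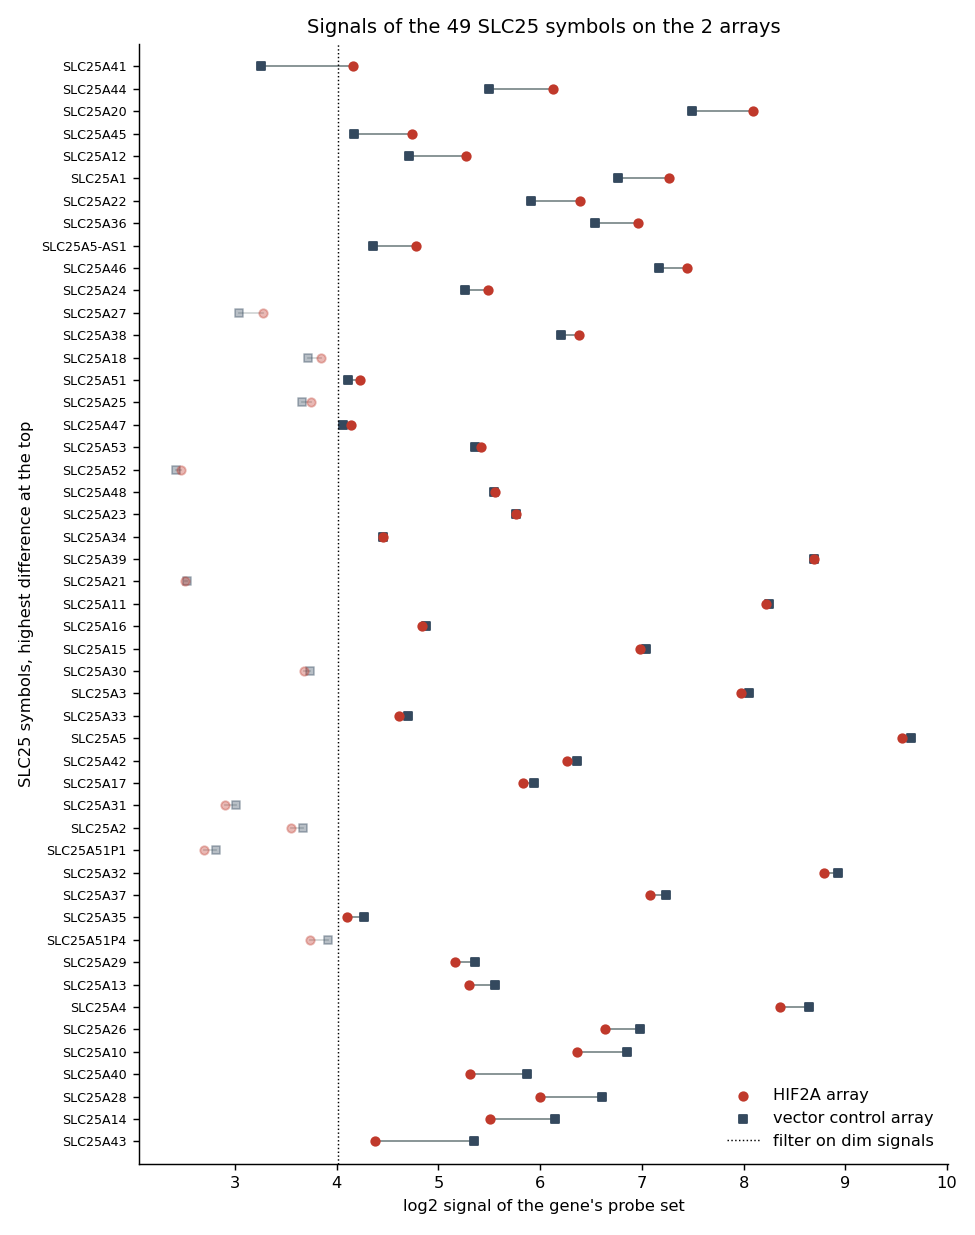
Log2 signal of each SLC25 symbol's probe set (x axis) on the HIF2A array (red circles) and the vector control array (dark squares), with 1 gene per line and the largest positive difference at the top. Pale symbols did not reach the filter of 4.01 (dotted line), and levels of different genes are not comparable across lines. SLC25A41, which is below the olfactory receptor limit on the vector control array, and SLC25A43 have the widest gaps, at 0.90 and -0.97.

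**Figure D2:**
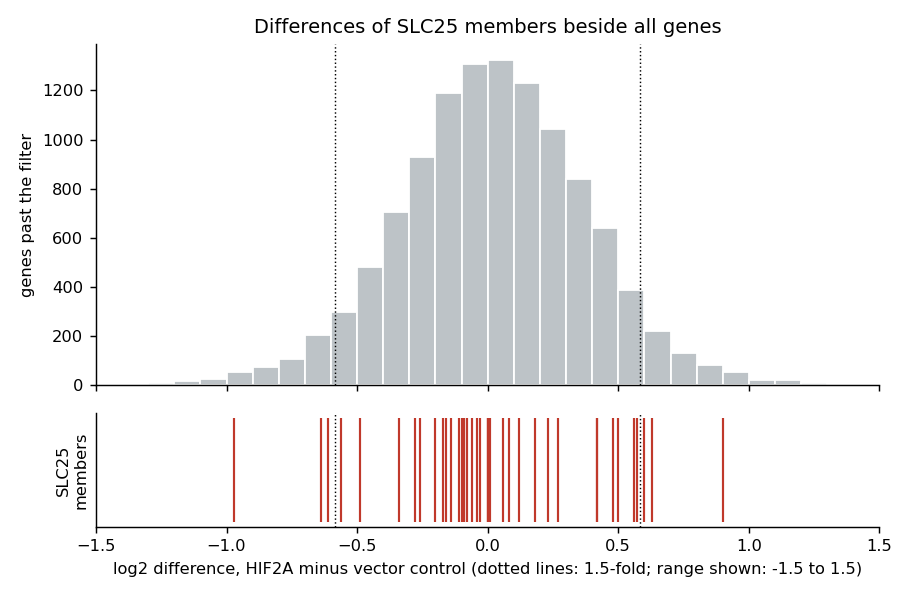
Histogram of the log2 differences, HIF2A minus vector control, of the 11469 genes past the filter (top), with 1 red line for each of the 39 SLC25 members past it (bottom). Dotted lines mark 1.5-fold, 37 genes lie outside the range shown, and 3 members lie beyond each dotted line on the deposited signals. Among the 3 higher is SLC25A41, which is below the olfactory receptor limit on the vector control array.

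The upstream sequences of members past the 1.5-fold line are printed first, since the HIF core is a short DNA string that can be looked for in them. They are the 250 bases before the start of the gene in the RefSeq promoter table of GRCh38.p14, read 5′ to 3′ on the strand of the gene, and capitals mark ACGTG or GCGTG on either strand, which in these letters reads CACGT or CACGC on the other strand. SLC25A41 had no window in that table and is named only. For the carriers that were higher in the HIF2A array, these windows read as follows.
SLC25A44, chr1:156193854-156194103, plus strand: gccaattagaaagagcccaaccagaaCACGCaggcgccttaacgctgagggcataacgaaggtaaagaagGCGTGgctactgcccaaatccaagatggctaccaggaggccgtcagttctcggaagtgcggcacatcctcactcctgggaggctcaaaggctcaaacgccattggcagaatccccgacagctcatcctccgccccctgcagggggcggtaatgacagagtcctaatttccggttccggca
SLC25A20, chr3:48898883-48899132, minus strand: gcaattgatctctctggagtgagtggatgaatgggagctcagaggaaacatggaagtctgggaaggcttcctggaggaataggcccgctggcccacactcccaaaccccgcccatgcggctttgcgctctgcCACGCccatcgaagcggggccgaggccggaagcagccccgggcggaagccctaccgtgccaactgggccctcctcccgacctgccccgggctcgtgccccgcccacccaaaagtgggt
For the carriers that were lower in the HIF2A array, they read as follows.
SLC25A28, chr10:99620440-99620689, minus strand: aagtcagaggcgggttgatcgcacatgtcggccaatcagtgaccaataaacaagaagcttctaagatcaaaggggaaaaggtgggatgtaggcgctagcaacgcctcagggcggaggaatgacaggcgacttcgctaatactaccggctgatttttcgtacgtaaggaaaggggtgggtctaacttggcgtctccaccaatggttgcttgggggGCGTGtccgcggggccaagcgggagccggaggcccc
SLC25A14, chrX:130339669-130339918, plus strand: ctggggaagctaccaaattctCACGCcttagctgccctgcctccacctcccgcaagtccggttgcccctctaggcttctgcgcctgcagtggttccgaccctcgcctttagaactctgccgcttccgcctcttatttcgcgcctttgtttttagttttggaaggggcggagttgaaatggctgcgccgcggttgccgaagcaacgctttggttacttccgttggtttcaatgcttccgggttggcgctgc
SLC25A43, chrX:119399086-119399335, plus strand: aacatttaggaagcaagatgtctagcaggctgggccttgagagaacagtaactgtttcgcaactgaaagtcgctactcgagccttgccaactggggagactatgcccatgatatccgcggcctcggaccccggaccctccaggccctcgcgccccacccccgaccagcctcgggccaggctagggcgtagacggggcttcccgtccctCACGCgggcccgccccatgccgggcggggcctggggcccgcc

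All 5 of these windows hold the core, SLC25A44 at 2 places and the other four at 1 place each, whichever way the gene differed. The table held windows for 40 of the 49 members. Among the 34 of them past the filter, 29 windows held the core, or 85.3%, beside 58.0% of 9138 windows of all genes past the filter and 43.1% of 27305 windows in the table. Of the members that were higher in the HIF2A array, 13 of 15 windows held it, and of those that were lower, 13 of 16. The palindrome CACGTG is read on both strands and counts as 2 matches, and overlaps with other motifs were not removed. The median GC content was 67.6% in the members' windows and 65.6% in those of all genes past the filter. A match describes these letters and no binding was measured.

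Among the carriers of adenine nucleotides, which bring ADP into the matrix and ATP out, both measured forms lay close to each other in direction. SLC25A4, the form typical of heart and muscle, had 8.36 in the HIF2A array and 8.64 in the vector control array, a difference of -0.28. SLC25A5, the form of dividing cells, had 9.56 and 9.65 in the same order, a difference of -0.09. The testis form SLC25A31 was below the olfactory receptor limit on both arrays, at 2.90 and 3.01. SLC25A3, which imports the phosphate that ATP synthase joins to ADP, had 7.97 in the HIF2A array and 8.05 in the vector control array. Thus no measured member that feeds ATP synthase with ADP or phosphate reached 1.5-fold.

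The ATP-Mg/phosphate carriers adjust the total matrix pool of adenine nucleotides. SLC25A41, the member of this group that lacks the calcium-binding domain, had 4.16 in the HIF2A array and 3.26 in the vector control array. The vector control signal lay below the olfactory receptor limit and the gene passed the filter through the HIF2A array, so its deposited difference of 0.90 is given only as a bound, at least 1.48-fold higher, which is short of 1.5-fold. SLC25A23, which RefSeq places next to SLC25A41 on chromosome 19 with 0 genes between, had 5.76 on both arrays. SLC25A24 had 5.49 in the HIF2A array and 5.26 in the vector control array, and SLC25A25 had 3.75 and 3.66, short of the filter.

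The amino acid and carnitine carriers include SLC25A20 and SLC25A44, the members at least 1.5-fold higher with both signals above the olfactory receptor limit. Of 10 listed, 8 passed the filter, 5 higher, or 62.5% beside 52.6% of all genes, and 3 lower, with a median of 0.33. That median was 0.155 over all 10 without the filter, 0.19 with neighbours subtracted and 0.203 with 32 added to the linear signals. SLC25A20, which exchanges acylcarnitine for carnitine and so brings fatty acids to matrix oxidation, had 8.09 in the HIF2A array and 7.49 in the vector control array, a difference of 0.60. Its 20 nearest measured genes on chromosome 3 had a median difference of 0.255, and SLC25A20 exceeded them by 0.345, short of 1.5-fold. SLC25A44, a carrier of branched-chain amino acids, had 6.13 in the HIF2A array and 5.5 in the vector control array, a difference of 0.63. Its neighbours on chromosome 1 had a median of -0.04, with 11 of 20 lower, and less that median SLC25A44 came to 0.67.

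The 2 aspartate/glutamate carriers of the malate-aspartate shuttle differed in opposite directions. SLC25A12, also called aralar, had 5.27 in the HIF2A array and 4.71 in the vector control array, a difference of 0.56. SLC25A13, also called citrin, had 5.30 in the HIF2A array and 5.56 in the vector control array, a difference of -0.26. Among glutamate carriers, SLC25A22 had 6.39 in the HIF2A array and 5.91 in the vector control array, a difference of 0.48, while its neighbours on chromosome 11 had a median of 0.29. The related SLC25A18 had 3.85 and 3.72 in the same order and did not reach the filter. The ornithine carrier SLC25A15, which serves the urea cycle, had 6.98 in the HIF2A array and 7.04 in the vector control array, and its relative SLC25A2, at 3.55 and 3.67, did not reach the filter. The remaining amino acid carriers were SLC25A38, which carries glycine for heme synthesis, with a difference of 0.18, and SLC25A29, for basic amino acids, with -0.20.

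The carriers of organic acids went separate ways. SLC25A1 exports citrate, the source of cytosolic acetyl-CoA for lipid synthesis, and had 7.27 in the HIF2A array and 6.77 in the vector control array, a difference of 0.50. SLC25A10, which exchanges malate or succinate for phosphate, had 6.36 in the HIF2A array and 6.85 in the vector control array, a difference of -0.49. SLC25A11, the oxoglutarate/malate carrier of the malate-aspartate shuttle, had 8.22 and 8.25 in the same order. SLC25A21, a carrier of oxodicarboxylates, was below the olfactory receptor limit on both arrays. The citrate and dicarboxylate carriers thus stood about equally far from 0 on either side, each short of 1.5-fold.

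The iron and glutathione group of 4 had 0 higher members, 3 lower and 1 equal, where 5291 of 11469 genes in all were lower. SLC25A28, mitoferrin 2, which imports iron for heme and iron-sulfur clusters in most tissues, had 6.0 in the HIF2A array and 6.61 in the vector control array. Its difference was -0.61, and its neighbours on chromosome 10 had a median of 0.02. SLC25A37, mitoferrin 1, the form prominent in red cell precursors, had 7.08 in the HIF2A array and 7.24 in the vector control array, and its second probe set had 5.64 and 5.72. Both probe sets of SLC25A37 thus differed by little, at -0.16 and -0.08. SLC25A40, a close relative of the glutathione carrier SLC25A39, had 5.31 in the HIF2A array and 5.87 in the vector control array, a difference of -0.56. Its neighbours on chromosome 7 had a median of -0.225, with 16 of 20 lower. SLC25A39 itself had 8.69 on both arrays.

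Carriers of cofactors and other nucleotides numbered 8 past the filter, 2 higher and 6 lower, and 0 reached 1.5-fold. The pyrimidine nucleotide carrier SLC25A36 had 6.96 in the HIF2A array and 6.54 in the vector control array, a difference of 0.42. Its paralog SLC25A33 had 4.61 and 4.70 in the same order on its brighter probe set and 4.0 and 4.31 on the dimmer one, so both of its probe sets were lower, by differences of -0.09 and -0.31. SLC25A26, which brings the methyl donor S-adenosylmethionine into the matrix, had 6.64 in the HIF2A array and 6.98 in the vector control array, a difference of -0.34. The others past the filter were SLC25A51, for NAD, at 0.12, SLC25A16 and SLC25A42, linked to coenzyme A, at -0.04 and -0.10, the peroxisomal SLC25A17 at -0.11 and the folate carrier SLC25A32 at -0.14.

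The largest negative differences were those of SLC25A43 and SLC25A14, both on the X chromosome. SLC25A43, whose substrate is not well defined, had 4.38 in the HIF2A array and 5.35 in the vector control array, 1.96-fold lower, and 91 genes had a more negative difference. The next members on that chromosome did not share its difference. RefSeq places SLC25A5-AS1 after SLC25A43 with 0 protein-coding genes between, and SLC25A5 directly after that. SLC25A5-AS1 had 4.78 in the HIF2A array and 4.36 in the vector control array, a difference of 0.42, and SLC25A5 differed by -0.09. SLC25A14, an uncoupling protein-like carrier known from brain, had 5.51 in the HIF2A array and 6.15 in the vector control array, a difference of -0.64. Its neighbours had a median of -0.065, and less that median it came to -0.575, just short of 1.5-fold. The related SLC25A27 and SLC25A30 did not reach the filter.

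Among the 8 members of the outer membrane or with less settled substrates, 5 were higher, 2 lower and 1 equal. Thus 62.5% of them were higher, beside 52.6% of all genes. SLC25A45 had 4.74 in the HIF2A array and 4.17 in the vector control array, a difference of 0.57, and its neighbours on chromosome 11 had a median of 0.40. SLC25A46, an outer membrane member that shapes mitochondria, had 7.44 in the HIF2A array and 7.17 in the vector control array, a difference of 0.27. SLC25A48 had 5.56 and 5.55 in the same order. These last genes are both on chromosome 5, and their neighbours had medians of 0.34 and 0.35, so SLC25A46 was near its neighbours and SLC25A48 below them. The rest of this group were SLC25A47 at 0.08, SLC25A53 at 0.06, SLC25A34 at 0 and SLC25A35 at -0.17.

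Neighbours that differ one way lay around several carriers. Of the 39 members, 8 had a neighbour median beyond 0.2 in either direction, and these are SLC25A4, SLC25A20, SLC25A22, SLC25A32, SLC25A40, SLC25A45, SLC25A46 and SLC25A48. The share of all genes with such a neighbour median was not computed. On the deposited signals all 8 differed in the direction of their neighbours, SLC25A48 by 0.01. The difference of SLC25A48 was -0.03 with quantile normalization and with loess centring. SLC25A4, on chromosome 4, had neighbours with a median of -0.355, lower than its own -0.28. Over all 39, 20 members had the sign of their neighbours' median and 16 the opposite sign. The part of neighbouring genes in these differences was not tested. SLC25A44, SLC25A28 and SLC25A43 stayed beyond 1.5-fold after their neighbours' median was subtracted, at 0.67, -0.63 and -0.89. SLC25A12, whose neighbours had a median of -0.025, moved just past that line, to 0.585. On its deposited signals SLC25A41 came to 0.925, with its vector control signal below the olfactory receptor limit.

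**Figure D3:**
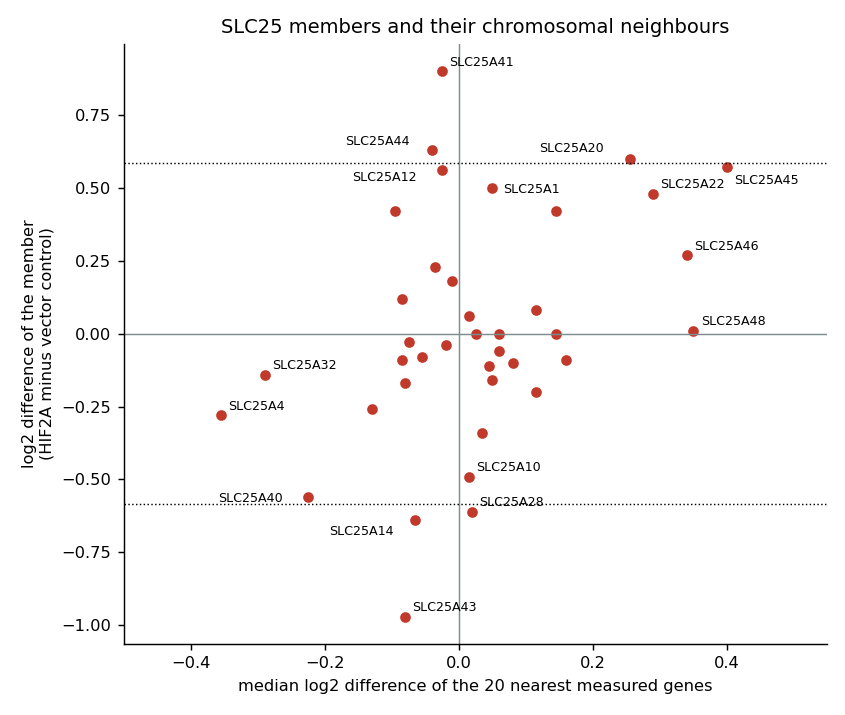
Log2 difference of each of the 39 SLC25 members past the filter (y axis, HIF2A minus vector control) against the median difference of its 20 nearest measured genes on the chromosome (x axis). Dotted lines mark 1.5-fold. SLC25A20, SLC25A45 and SLC25A22 lie to the right, at neighbour medians from 0.255 to 0.40, while SLC25A41, SLC25A44, SLC25A28 and SLC25A43 have neighbour medians near 0.

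The 10 members not counted, since both arrays were dim, are SLC25A2, SLC25A18, SLC25A21, SLC25A25, SLC25A27, SLC25A30, SLC25A31, SLC25A52, SLC25A51P1 and SLC25A51P4. Their differences lay between -0.17 and 0.23. Just inside the filter were SLC25A47, with 4.14 in the HIF2A array and 4.06 in the vector control array, and SLC25A41, with 4.16 and 3.26. SLC25A51P4, with 3.74 and 3.91 in the same order, was just outside.

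Measured genes for proteins with the same fold but other names stayed within 1.5-fold, with UCP2 the farthest from 0 at 0.44. UCP2, an uncoupling protein-family carrier of white blood cells and other tissues, had 7.65 in the HIF2A array and 7.21 in the vector control array, and its neighbours had a median of 0.215. MTCH2, an outer membrane protein that inserts others, had 9.41 and 9.36 in the same order. Of the 4 such genes past the filter, 2 were higher, 2 lower and 0 beyond 1.5-fold.

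Enzymes that act next to the carriers' substrates were higher in 13 of 16 cases past the filter, or 81.2% beside 52.6% of all genes, with 2 lower and a median of 0.155. That median was 0.07 without the filter and 0.08 with the 25th percentile filter. CPT1A, which makes the acylcarnitine that SLC25A20 carries, had 6.32 in the HIF2A array and 4.73 in the vector control array, 3.01-fold higher and the sole member of this list beyond 1.5-fold. The difference of its carrier SLC25A20 was 0.60, as above. NADK2, the mitochondrial NAD kinase, differed by 0.43, and PANK4 of the pantothenate kinase family by 0.38. The lower ones were PANK2, a mitochondrial pantothenate kinase at the head of coenzyme A synthesis, at -0.52, and the folate enzyme MTHFD2 at -0.22. The enzymes of the malate-aspartate and glycerol phosphate shuttles stayed within 1.5-fold. Of these 7, 4 were higher, or 57.1%, and 3 lower, from MDH1 at -0.37 to GPD1L at 0.17, with a median of 0.07. The lower ones include GPD1 and GPD2, which passed the filter through the vector control array alone. GPD1 had 4.0 in the HIF2A array and 4.04 in the vector control array, and GPD2 had 3.74 and 4.04 in the same order.

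Carriers reach the inner membrane through the outer membrane pore, small chaperones of the intermembrane space and the TIM22 insertase. Of 13 genes of this route past the filter, 7 were higher, 5 lower and 1 equal, with a median of 0.09. The higher share was 53.8%, beside 52.6% of all genes. The 3 largest positive differences were those of TOMM20, TOMM40 and TOMM70, while TOMM22, also of the outer membrane, differed by -0.08. TOMM20, a receptor for incoming proteins, had 5.87 in the HIF2A array and 5.20 in the vector control array. TOMM40, the pore itself, had 6.95 in the HIF2A array and 6.36 in the vector control array. TOMM70, the main receptor for carriers, had 7.37 in the HIF2A array and 7.0 in the vector control array. The 3 largest negative differences were those of TIMM29, TIMM22 and AGK, while TIMM10B, which works with the same insertase, differed by 0.21. TIMM29, a subunit of TIM22, had 4.87 in the HIF2A array and 5.54 in the vector control array. TIMM22, the channel subunit, had 7.21 in the HIF2A array and 7.62 in the vector control array. AGK, a lipid kinase that is also a TIM22 subunit, had 7.36 in the HIF2A array and 7.65 in the vector control array. TOMM20 and TOMM40 were at least 1.5-fold higher, where 5.67% of all genes were, and TIMM29 at least 1.5-fold lower, where 4.76% were.

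Other transporters of the inner membrane spread wider than the carriers, with a robust SD of 0.56 over 13 genes. Of these 6 were higher, or 46.2% beside 52.6% of all genes, and 7 lower. Their median of -0.11 turned to 0.06 over 17 genes without the filter. MCUB, a subunit that restrains the mitochondrial calcium uniporter, had 3.61 in the HIF2A array and 5.22 in the vector control array, 3.05-fold lower. The gene passed the filter through the vector control array, and its HIF2A signal lay just above the olfactory receptor limit of 3.58. Its neighbours on chromosome 4 had a median of -0.38. MPC1, a subunit of the mitochondrial pyruvate carrier, had 7.17 in the HIF2A array and 7.72 in the vector control array. SMDT1, another uniporter subunit, differed by -0.49. Higher was LETM1, a cation exchanger, at 8.06 in the HIF2A array and 7.24 in the vector control array. The serine carrier SFXN1 was also higher, at 7.73 in the HIF2A array and 6.96 in the vector control array. ABCB8 and ABCB10, exporters of the ABC family, each differed by 0.47. The porins VDAC1, VDAC2 and VDAC3, the channels of the outer membrane, differed by 0.28, 0.32 and -0.24.

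**Figure D4:**
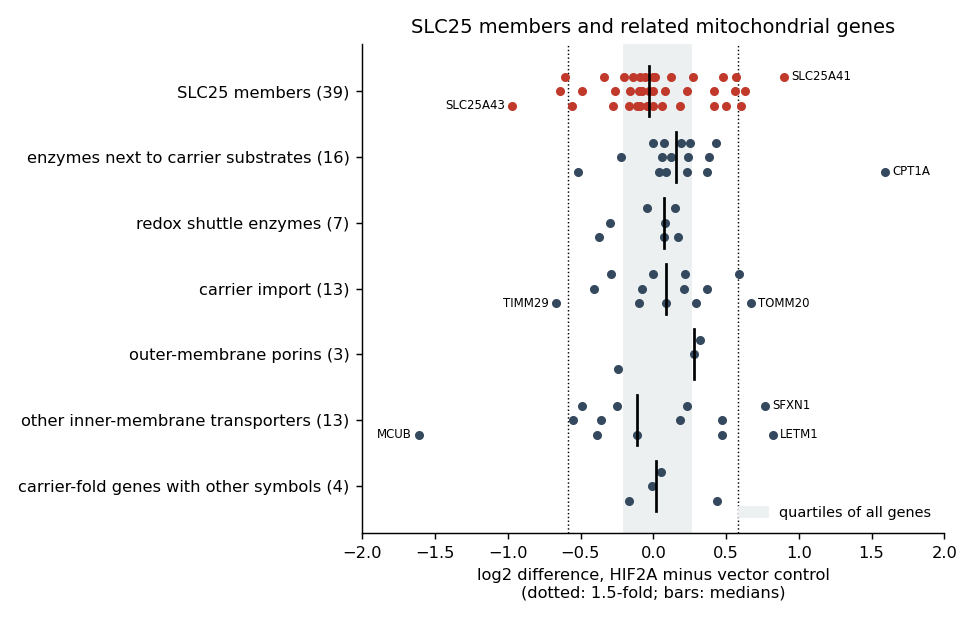
Log2 differences, HIF2A minus vector control, of the 39 SLC25 members (red) and of related gene lists (dark points) past the filter, with the number of genes in brackets, the list median as a bar and the quartiles of all genes shaded, from -0.20 to 0.26. Vertical spread within a line is for legibility. MCUB and CPT1A lie farthest from 0, at -1.61 and 1.59, and the SLC25 members stay between -0.97 and 0.90. The value of 0.90 is that of SLC25A41, which is below the olfactory receptor limit on the vector control array. MCUB passed the filter through the vector control array, and its HIF2A signal is near the olfactory receptor limit.

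The remaining solute carrier genes, 149 with other SLC numbers past the filter, had a median difference of 0.10. Of them 95 were higher, or 63.8% beside 52.6% of all genes, and 54 lower. Of these 8.05% lay beyond 1.5-fold in either direction. Genes of mitochondrial ribosomal proteins, 73 past the filter, were higher in 30 cases, or 41.1%, and lower in 42. Their median was -0.06, with 11.0% beyond 1.5-fold. The carriers' median of -0.03 lay between both. With 1 array per group no test of these gaps can be made.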

How the data were processed

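RNA of 1 HIF2A and 1 vector control line was measured on 1 array each. The authors deposited log2 signals per probe set, made with Affymetrix Expression Console as the submitters' processing notes record, with algorithm, version, background correction and centring not given in the sources used here. Log base 2 was inferred from the maximum of 13.97, above the natural log of a 16-bit reading, 11.09. Of 28869 probe sets, 19310 have 1 gene symbol, 19279 of them matched to RefSeq of GRCh38.p14 by Entrez number for names and gene order. Left out were 1752 with several symbols, 0 of them with an SLC25 symbol, and 7807 with no listed gene. Probe set coordinates are not printed, as no source names the annotation's build.

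Each gene took its brightest probe set, and differences are HIF2A minus vector control. A gene was counted when its brighter array reached the 50th percentile of the mean signal, and called at 1.5-fold or 2-fold. Where 1 array lay below the olfactory receptor limit, the fold is a bound against it. Neighbours are the 20 nearest counted genes. Signals are given for the 8 members with the largest differences each way, close paralogs and members with several probe sets; hand-curated related lists name up to 3 genes each way. Members and lists were chosen with earlier results of these data known. Alternatives were other scalings, an offset of 32, filters, probe set rules, a floor at the olfactory receptor limit, and subtracting neighbours. The code was tested on simulated data. It used Python 3.11.15 with matplotlib 3.10.9, statsmodels 0.14.6, scipy 1.17.1, pandas 2.3.3 and numpy 2.4.6.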

Additional observations from a re-analysis of the deposited data

How the results depend on the processing

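The median of the SLC25 members lay between -0.07 (75th percentile filter) and -0.01 (median centring), and their mean was 0.016. The count at 2-fold was 0 either way in every setting run. With 32 added to the linear signals, an offset that compresses low values, 0 members were 1.5-fold higher and 0 lower, SLC25A41 came to 0.262 and SLC25A43 to -0.463. In the other settings the counts at 1.5-fold were 2 to 4 in each direction. Loess centring put SLC25A20, at 0.576, short of that line and SLC25A40, at -0.60, past it. Amino acid and carnitine carriers had a median of 0.203 with that offset, 0.155 with no filter or the 25th percentile filter, and 0.19 with neighbours subtracted. Other inner-membrane transporters had 0.06 with no filter or the 25th percentile filter, which change only the genes that enter. Of 429 values of counted members, 8 turned sign, all of members within 0.28 of 0, and those of SLC25A4 and SLC25A46 after subtracting neighbours were 0.075 and -0.07. Many settings leave a gene's value as it is, so this count does not measure stability. Counting protein-coding members alone, chosen after seeing the data, gave a median of -0.035. No array could be left out, as each group has 1. No paired analysis was possible because each group has 1 array.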
